A study of Mus musculus with 15 samples.

Results

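The genes of the NRF2 antioxidant and detoxification programme were followed in mouse embryonic fibroblasts (MEFs) exposed to 4 cytokine treatments. The set held 10 genes, taken as a fixed list: *Nfe2l2*, *Gclc*, *Gclm*, *Gsr*, *Txnrd1*, *Srxn1*, *Nqo1*, *Hmox1*, *Gsta4* and *Gstm1*. Their probes were those annotated to a RefSeq transcript of one of the genes, 13 probes of the 56605 distinct probes on the array and 10 genes of the 23462 genes named there. The cells were Balb/c/3T3 MEFs of clone A31, an established fibroblast line, so that the arrays describe 1 line and not primary cells. RNA was measured on 15 one-colour Agilent arrays, 3 in each of 5 groups. Control MEFs were left untreated. Per ml of medium, the other groups received 10 ng of TNFα, or 5 ng of TGFß1, or 1 ng of IL-1β, or 20 ng of IL-6 together with 25 ng of its soluble receptor sIL-6Rα. The study names a 24 h stimulation for the control, TNFα and TGFß1 arrays, which it describes as 3 independent experiments, while the labels give 24 or 72 h for all groups and the time of the IL-1β and IL-6 groups was not settled here. The question was how transcripts of this programme stood after proinflammatory and profibrotic stimulation.

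NRF2, the protein encoded by *Nfe2l2*, is a transcription factor that KEAP1 holds in the cytoplasm and delivers for degradation. Oxidants and electrophiles modify KEAP1, after which NRF2 gathers in the nucleus, pairs with small MAF proteins and binds antioxidant response elements near genes for glutathione synthesis, thioredoxin reduction, quinone reduction, haem breakdown and conjugation of toxic compounds. In fibroblasts the programme is known as a brake on oxidative stress, and much of its control acts on the NRF2 protein, which arrays of RNA do not measure.

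The stretches printed here show the start regions of 5 genes in which changes were called in the fit of 15 arrays or with slide and run in the model. RefSeq promoter windows, from 250 bases before to 50 bases after the transcription start, were found for 6 of the 10 genes on mouse build GRCm38.p6. They were searched on both strands for TGACNNNGC, the core letters of the antioxidant response element, which overlap the TGAC of other bZIP motifs. The letters were present in a window of 4 of these 6 genes (*Nfe2l2*, *Srxn1*, *Gclm* and *Txnrd1*) and in a window of 14.0% of all 27025 genes with a promoter window. In *Srxn1* they lay after the start, and no stretch of this gene is shown. A match is a description of letters and not a measured binding site, and windows without the letters say nothing of sites farther away. The stretches of 100 bases are given along the strand of each gene, 5′ to 3′, with the matched letters in capitals. *Nfe2l2* is on the minus strand at chr2:75704814-75704913, *Gclm* on the plus strand at chr3:122245373-122245472, *Txnrd1* on the plus strand at chr10:82859064-82859163 (1 of its 3 windows), *Nqo1* on the minus strand at chr8:107403206-107403305, and *Gstm1* on the minus strand at chr3:108017974-108018073.
Nfe2l2: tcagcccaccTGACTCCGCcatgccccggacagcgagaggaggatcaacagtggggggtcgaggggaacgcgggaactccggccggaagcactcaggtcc
Gclm: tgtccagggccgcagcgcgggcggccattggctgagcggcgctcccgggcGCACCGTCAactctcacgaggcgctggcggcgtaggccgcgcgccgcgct
Txnrd1: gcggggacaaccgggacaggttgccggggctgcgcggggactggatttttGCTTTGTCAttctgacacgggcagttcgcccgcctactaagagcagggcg
Nqo1: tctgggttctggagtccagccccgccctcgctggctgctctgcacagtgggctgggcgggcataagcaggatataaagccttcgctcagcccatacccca
Gstm1: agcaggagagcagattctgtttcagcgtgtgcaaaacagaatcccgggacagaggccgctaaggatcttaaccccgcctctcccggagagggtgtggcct
The match in *Nfe2l2* begins at position -240 from the start and reads as written. Those in *Gclm* and *Txnrd1* begin at positions -134 and -92 and are the reverse complement. The *Nqo1* and *Gstm1* stretches, which end at the base before the start, hold no match, and neither do their windows.

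A level is the log2 brightness of a probe minus the 75th percentile of its array, and a log2 fold-change is the difference of 2 group means of levels. A gene was called when its q-value (limma, Benjamini-Hochberg over 29334 tested probes) was below 0.05 and its fold-change in either direction reached 1.5. The share of all tested probes with an unadjusted limma p below 0.05 was not counted, so numbers of genes below it stand alone. Genes with 2 probes (*Nfe2l2*, *Txnrd1* and *Gstm1*) are given by the brighter one. All 13 probes were well above background on all 15 arrays. Between 48.3% and 54.9% of probes were well above background per array and no spot was saturated. Genes known to answer TNFα, IL-1β or IL-6 were called higher in the labelled groups, with *Nfkbia* at 2.42 for TNFα and 1.11 for IL-1β and *Socs3* at 2.39 for IL-6 + sIL-6Rα. All 9 fibroblast marker genes were well above background on all 15 arrays. Of 12 markers of leukocytes, epithelium and endothelium, 3 (*Cd3e*, *Csf1r* and *Pecam1*) were so on all 15 arrays and none was called with any cytokine against control. *Ptprc*, *Adgre1*, *Cdh1*, *Krt5*, *Cdh5* and *Kdr* were above background on no array. The arrays lay on 2 slides, and their label numbers form 3 runs (1 to 5, 6 to 10 and 11 to 15) with 1 array of every group, the meaning of which the labels do not give. On slide 1, TNFα 14 and TGFß1 7 were the only arrays of their groups. On slide 2, control 6, IL-1β 15 and IL-6 + sIL-6Rα 13 were the only ones of theirs. Most comparisons within a slide therefore rest on a single array of a group.

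TGFß1 was the treatment with which members of the programme were called against control. *Gstm1*, *Nqo1* and *Nfe2l2* fell, by 2.74, 1.65 and 0.66 on the log2 scale, and no member was called higher in that fit. With slide and run in the model *Txnrd1* was also called higher (0.71) and *Gsta4* lower (-0.71) with TGFß1, beside 22.7% of tested probes. That model also called *Txnrd1* higher and *Gstm1* lower with TNFα, beside 15.4%. Since each array holds RNA of a whole culture, fewer cells expressing a gene and less RNA per cell cannot be told apart. The 3 calls of 10 genes in the fit without slide and run stood beside 17.9% of all tested probes called with TGFß1, and 10.4% called lower. The 3 TGFß1 arrays did not overlap the controls for 8 of the 10 genes, 6 of them below (*Nfe2l2*, *Nqo1*, *Hmox1*, *Gclm*, *Gsta4* and *Gstm1*) and 2 above (*Txnrd1* and *Srxn1*). Groups did not overlap for 38.8% of all tested probes. Over the 10 genes the median log2 fold-change was -0.44, beside 0.071 over all probes tested.

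With TNFα no member was called by limma, beside 10% of tested probes. Of the 10 genes, 5 had an unadjusted p below 0.05, a share that was not counted over all tested probes. The 5 genes were *Nfe2l2* (0.44) and *Txnrd1* (0.50) with positive values, and *Nqo1* (-0.56), *Gstm1* (-0.96) and *Gclm* (-0.34) with negative values. Arrays did not overlap the controls for 4 of 10 genes, beside 28.9% of all probes, with *Nfe2l2* and *Srxn1* above and *Nqo1* and *Hmox1* below. With slide and run in the model *Txnrd1* (0.60, q = 0.000125) and *Gstm1* (-1.01, q = 0.00129) were called, beside 15.4% of tested probes. Without the array TNFα 14 *Nqo1* was called (-0.76, q = 0.0252), beside 9.09%.

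With IL-1β no member was called by limma, none had an unadjusted p below 0.05, and 0.232% of tested probes were called. Its arrays did not overlap the controls for 3 of 10 genes, beside 5.32% of all probes, with *Nfe2l2* above and *Nqo1* and *Hmox1* below. With IL-6 + sIL-6Rα no member was called by limma either, beside 0.058% of tested probes. *Gclm*, at 0.39, was the member with an unadjusted p below 0.05 there, and it was also the 1 gene of 10 whose arrays did not overlap the controls, beside 5.04% of all probes. The 95% intervals of the 10 genes reached no farther than -0.69 and 1.23 with IL-1β and -1.50 and 0.70 with IL-6 + sIL-6Rα.

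**Figure D1:**
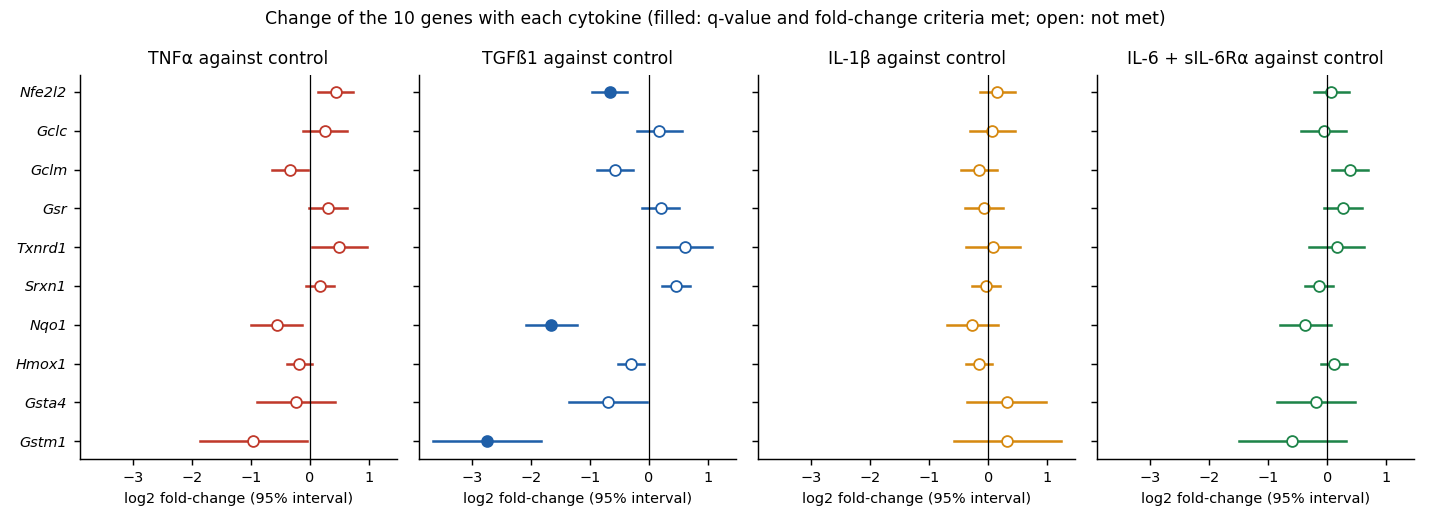
Log2 fold-change of each of the 10 genes (rows) with each cytokine against control, with 95% intervals from the limma fit of 15 arrays. Filled points met the q-value and fold-change criteria and open points did not. *Nfe2l2*, *Nqo1* and *Gstm1* with TGFß1 are the filled points, all below 0.

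Treatments were also compared directly, all in the fit of 15 arrays. TNFα stood above TGFß1 for *Gstm1* (1.78, q = 0.0112), *Nfe2l2* (1.10, q = 0.000126) and *Nqo1* (1.09, q = 0.00217), 3 calls of 10 beside 11.8% of tested probes. Without TNFα 9 the *Gstm1* difference was 1.59 (q = 0.0531) and not called, and within slide 1 and slide 2 it was 1.80 and 1.77, also not called. IL-1β stood above TGFß1 for *Gstm1* (3.07), *Nqo1* (1.39), *Gsta4* (1.00) and *Nfe2l2* (0.82), 4 calls beside 16.9%. With the slide, or slide and run, in the model *Txnrd1* was called as well, at -0.62 (q = 0.0207) and -0.63 (q = 6.52e-05), lower with IL-1β than with TGFß1. These fits called 19.8% and 22.3% of tested probes. IL-6 + sIL-6Rα stood above TGFß1 for *Gstm1* (2.16), *Nqo1* (1.28), *Gclm* (0.97) and *Nfe2l2* (0.73) and below it for *Srxn1* (-0.60), 5 calls beside 16.3%. These comparisons share the 3 TGFß1 arrays with one another and with the comparison against control. Away from TGFß1, the call was *Gclm*, higher with IL-6 + sIL-6Rα than with TNFα (0.73, q = 0.00544), 1 call of 10 beside 8.59%. IL-1β differed by no call from TNFα or from IL-6 + sIL-6Rα, beside 4.69% and 0.399% of tested probes called. Unadjusted limma p-values were below 0.05 for 2 and 4 genes, which was not counted over all tested probes. With slide and run in the model *Gstm1* was called higher with IL-1β in both of these comparisons, at 1.33 (q = 0.000499) and 0.91 (q = 0.0155). The shares of tested probes called there were 10.5% and 1.77%.

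*Nfe2l2* (NM_010902), the regulator itself, had its lowest levels with TGFß1 and its highest with TNFα. Control arrays 1, 6 and 11 read 3.43, 3.61 and 3.63, and TGFß1 arrays 2, 7 and 12 read 2.82, 3.03 and 2.83. TNFα arrays 4, 9 and 14 read 3.72, 4.12 and 4.16. Every TGFß1 array was therefore below every array of the other groups, and every TNFα array above every control. IL-1β arrays 5, 10 and 15 read 3.67, 3.73 and 3.74, and IL-6 + sIL-6Rα arrays 3, 8 and 13 read 3.46, 3.81 and 3.60, close to the controls. The log2 fold-change with TGFß1 was -0.66 ± 0.14 (SE, q = 0.00421). Within slide 1 (TGFß1 7 alone) it was -0.50, and within slide 2 (control 6 alone) -0.78, not called in either. The mean of the 2 probes of the gene gave -0.57 (q = 0.0657), not called. With TNFα it was 0.44 ± 0.14 (SE, q = 0.0539), below the fold-change criterion as well. In the order TGFß1, control, IL-6 + sIL-6Rα, IL-1β, TNFα, the step from TGFß1 to control was called and no later step between neighbours was. The dimmer probe, annotated to the non-coding transcript NR_132727, had -0.48 with TGFß1 and 0.52 with TNFα, in the directions of the other probe, with TGFß1 arrays from -3.88 to -2.30 that overlapped the controls (-3.30 to -2.17).

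Glutathione synthesis starts with glutamate-cysteine ligase, of which *Gclc* encodes the catalytic and *Gclm* the modifier subunit. *Gclm* (NM_008129) read 3.80, 3.41 and 3.82 on control arrays 1, 6 and 11, and 3.00, 3.27 and 3.01 on TGFß1 arrays 2, 7 and 12. TNFα arrays 4, 9 and 14 read 3.24, 3.24 and 3.53, and IL-6 + sIL-6Rα arrays 3, 8 and 13 read 4.05, 4.22 and 3.93. The TGFß1 arrays were below all controls, the IL-6 + sIL-6Rα arrays were above all arrays of the other groups, and the TNFα arrays overlapped the controls. IL-1β arrays lay between 3.44 and 3.56, within the range of the controls. With TGFß1 the log2 fold-change was -0.58 ± 0.14 (SE, q = 0.0106), a fold-change of 1.497 and so just under the criterion of 1.5. It was called with quantile normalization (-0.69), without control 6 (-0.71) and without TGFß1 7 (-0.67). It was not called with slide and run in the model. Across the settings with no single array left out it ranged from -0.69 to -0.40. Taken by runs of label numbers, TGFß1 minus control was -0.80, -0.14 and -0.80.

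*Gclc* (NM_010295) stayed between 2.24 and 3.02 on all 15 arrays. Its log2 fold-changes were 0.17 ± 0.17 (SE) with TGFß1 and 0.26 ± 0.17 (SE) with TNFα, and its range of group means, 0.32, was the narrowest of the 10 genes. Whether the 2 subunits changed by different amounts was not tested. *Gsr* (NM_010344), the reductase that regenerates glutathione, lay between 3.68 and 4.45, with 0.20 ± 0.15 (SE) with TGFß1 and 0.31 ± 0.15 (SE) with TNFα. Control arrays 1, 6 and 11 read 4.28, 3.68 and 4.01 for *Gsr*, a spread (SD 0.30) of about the size of the difference with TNFα and wider than that with TGFß1. Its 3 TGFß1 arrays, by contrast, lay between 4.17 and 4.20.

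*Txnrd1* (NM_001042523) encodes cytosolic thioredoxin reductase, which keeps thioredoxin reduced. Its control arrays 1, 6 and 11 read 5.14, 4.36 and 5.05. TGFß1 arrays 2, 7 and 12 read 5.43, 5.52 and 5.41, all above the controls, and TNFα arrays 4, 9 and 14 read 5.40, 5.02 and 5.62, of which array 9 fell among the controls. Control 6 was the lowest of all 15 arrays. The log2 fold-change with TGFß1 was 0.60 ± 0.21 (SE, q = 0.0587), past the fold-change criterion and not the q-value. It was called with the slide in the model (0.70, q = 0.0112), with slide and run (0.71, q = 2.92e-05) and without control 1 (0.75). Within slide 1 (TGFß1 7 alone) it was 0.42, and within slide 2 (control 6 alone) 1.06. With TNFα it was 0.50 ± 0.21 (SE, q = 0.162), and 0.59 (q = 0.0387) with the slide in the model. The second probe had 0.55 with TGFß1 and 0.50 with TNFα.

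*Srxn1* (NM_029688), which restores over-oxidised peroxiredoxins, read 4.55, 4.36 and 4.55 on control arrays 1, 6 and 11 and 5.01, 4.99 and 4.83 on TGFß1 arrays 2, 7 and 12. All TGFß1 arrays were above all arrays of the other groups. The difference from control was 0.46 ± 0.11 (SE, q = 0.0102), and within the slides 0.44 and 0.56. It met the q-value criterion, and its fold-change of 1.37 did not reach 1.5. IL-6 + sIL-6Rα arrays were the lowest group, between 4.24 and 4.45, and the call of this group below TGFß1 was a fold-change of 1.51. That call was lost with normexp background correction, with quantile or median normalization, within either slide, and without IL-6 + sIL-6Rα 13, TGFß1 2 or TGFß1 7.

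*Nqo1* (NM_008706) encodes the quinone reductase widely used as a readout of NRF2 activity. Control arrays 1, 6 and 11 read 1.28, 1.46 and 1.16, whereas TGFß1 arrays 2, 7 and 12 read -0.43, -0.23 and -0.40. TNFα arrays 4, 9 and 14 read 0.82, 0.25 and 1.13 and were the most spread group. Every TGFß1 array was below 0 and below all other arrays, and the TNFα arrays lay between the TGFß1 arrays and the controls. IL-1β arrays 5, 10 and 15 read 0.96, 1.06 and 1.07, below all controls, and IL-6 + sIL-6Rα arrays 3, 8 and 13 read 0.79, 1.23 and 0.76, of which array 8 lay above control 11. The fold-change with TGFß1 was 3.15, a log2 fold-change of -1.65 ± 0.20 (SE, q = 0.000119). It was called with the slide in the model (-1.61) and with slide and run (-1.60). Within slide 1 (TGFß1 7 alone) it was -1.45, and within slide 2 (control 6 alone) -1.87. With TNFα it was -0.56 ± 0.20 (SE, q = 0.0849), and the values of the single runs ranged from -1.20 (TNFα 9 against control 6) to -0.03 (TNFα 14 against control 11). In the order TGFß1, TNFα, IL-6 + sIL-6Rα, IL-1β, control, the step from TGFß1 to TNFα was called and no later step between neighbours was.

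*Hmox1* (NM_010442), the inducible haem oxygenase, varied little. Control arrays lay between 5.26 and 5.38 and TGFß1 arrays between 4.93 and 5.10, a difference of -0.30 ± 0.10 (SE, q = 0.0441) with a fold-change of 1.23. TNFα arrays (5.10 to 5.19) and IL-1β arrays (5.13 to 5.23) also lay below all controls, with differences of -0.18 and -0.15 that limma did not call.

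**Figure D2:**
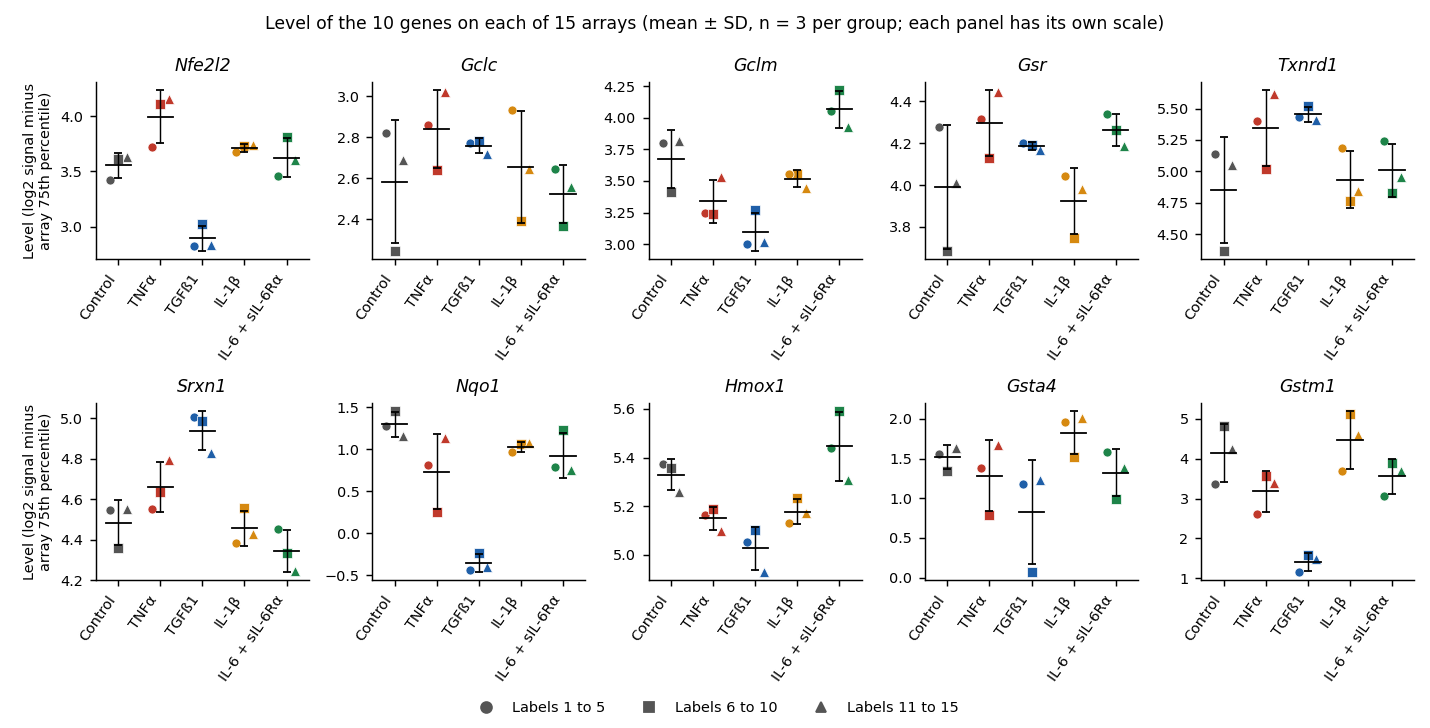
Level of each gene (log2 signal minus the 75th percentile of the array) on every array, grouped by treatment, with the mean ± SD of 3 arrays and a symbol for the run of label numbers. Each panel has its own scale. TGFß1 arrays are the lowest of all 15 for *Nfe2l2*, *Nqo1* and *Gstm1* and the highest for *Srxn1*.

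Both glutathione S-transferases of the list conjugate glutathione to electrophiles, *Gsta4* (alpha class) being known for 4-hydroxynonenal. *Gstm1* (NM_010358), of the mu class, had the widest range of group means of the 10 genes, 3.07. Control arrays 1, 6 and 11 read 3.38, 4.81 and 4.24, and TGFß1 arrays 2, 7 and 12 read 1.15, 1.59 and 1.47. TNFα arrays 4, 9 and 14 read 2.60, 3.56 and 3.39. All TGFß1 arrays were below all other arrays, and the TNFα arrays reached into the range of the controls, since control 1 (3.38) was lower than TNFα 9 and 14. IL-1β arrays 5, 10 and 15 read 3.68, 5.13 and 4.59, and IL-6 + sIL-6Rα arrays 3, 8 and 13 read 3.06, 3.91 and 3.70. The fold-change with TGFß1 was 6.70, a log2 fold-change of -2.74 ± 0.42 (SE, q = 0.000616), and the second probe gave -2.89 ± 0.37 (SE, q = 0.000193). For the brighter probe the log2 fold-change was -2.22 within slide 1 (TGFß1 7 alone), not called, and -3.51 within slide 2 (control 6 alone). In the order TGFß1, TNFα, IL-6 + sIL-6Rα, control, IL-1β, the step from TGFß1 to TNFα was called and no later step between neighbours was. Some transcripts of the mu class are closely alike in sequence, and whether these probes tell them apart was not tested.

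*Gsta4* (NM_010357) read 1.56, 1.35 and 1.64 on control arrays 1, 6 and 11 and 1.17, 0.07 and 1.23 on TGFß1 arrays 2, 7 and 12. The TGFß1 arrays were all below the controls, and array 7 stood far below the other 2. The log2 fold-change was -0.69 ± 0.31 (SE, q = 0.122), and -0.71 (q = 0.00634) and called with slide and run in the model. It was -1.53 within slide 1, which holds TGFß1 7, and -0.15 within slide 2. IL-1β was the highest group, at 1.51 to 2.01, and its call above TGFß1 was lost without IL-1β 5, IL-1β 15 or TGFß1 7 (0.63 without the last).

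Levels of several members differed between the runs of label numbers in every group, as the plot of arrays joined by run shows. *Gstm1* was lowest in labels 1 to 5 and highest in labels 6 to 10 in all 5 groups, with mean deviations from the group means of -0.58 and 0.45. Taken run by run, TGFß1 minus control was -2.23, -3.22 and -2.77 for *Gstm1*, and TNFα minus control was -0.78, -1.25 and -0.86. *Gsta4* went the other way, lowest in labels 6 to 10 in all 5 groups. The brighter *Nfe2l2* probe was lowest, and the dimmer one highest, in labels 1 to 5 in all 5 groups. *Txnrd1* and *Gclc* were lowest in labels 6 to 10 in 4 of 5 groups. Against control, all 3 runs had the same sign for 9 of the 10 genes with TNFα, 8 with TGFß1, 6 with IL-6 + sIL-6Rα and 5 with IL-1β. With TGFß1 they were lower for *Nfe2l2*, *Nqo1*, *Hmox1*, *Gclm*, *Gsta4* and *Gstm1* and higher for *Txnrd1* and *Srxn1*. Such a count was not made over all tested probes, so these counts show nothing particular to the 10 genes. For *Txnrd1* TGFß1 minus control was 0.29, 1.15 and 0.36, widest in labels 6 to 10, where the control was lowest. What the runs stand for was not given, and their part in these differences was not tested beyond the fit with slide and run.

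**Figure D3:**
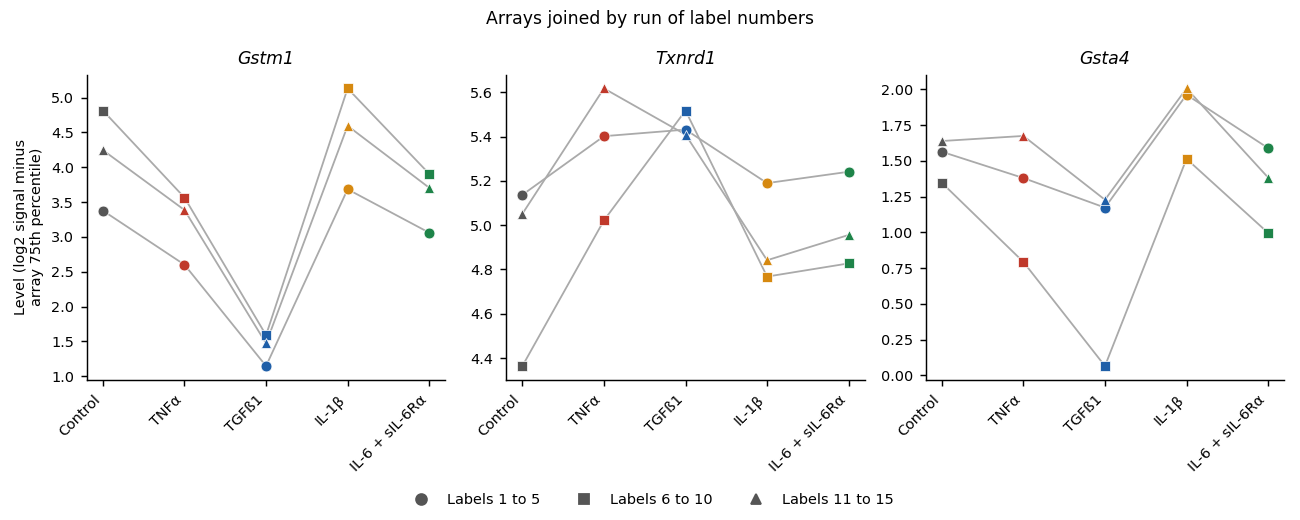
Levels (log2 signal minus the 75th percentile of the array) of *Gstm1*, *Txnrd1* and *Gsta4* by treatment, with the 5 arrays of each run of label numbers joined by a line. For *Gstm1* the 3 lines keep their order in every group and all reach their lowest point with TGFß1, between 1.15 and 1.59.

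Patterns most like those of the 3 members with the widest range of group means were searched over 13513 other genes, as a description across the same 15 arrays. For *Gstm1* these were *Gstm3* (Pearson's r = 0.997), *Gm32819* (0.972) and *Hacl1* (0.970). *Nqo1* was followed by *Mrnip* (0.953), *Dcaf8* (0.952) and *Vps37d* (0.944), and *Nfe2l2* by *H2-T22* (0.975), *Apobec1* (0.968) and *H2-T10* (0.966). The points share groups, slides and runs, and whether the *Gstm1* and *Gstm3* probes tell these transcripts apart was not tested.

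The wider programme was described with a list of 72 further genes, of which 66 had a tested probe. With TGFß1, 7 of the 66 were called higher and 20 lower, beside 7.51% and 10.4% of all probes. The detoxification enzymes held most of the lower calls, 14 of 23, and 1 higher call. Among the 4 largest were *Abcc3*, an efflux transporter that was not well above background on any TGFß1 array and was at least 21.2-fold lower than in controls, *Gstm3* (-2.78 ± 0.39, SE), *Mgst1* (-2.75 ± 0.34, SE) and *Gstt1* (-2.72 ± 0.48, SE), the last 3 of glutathione transferase families. *Gstm3* read 2.90 to 4.15 on control arrays and 0.59 to 1.20 on TGFß1 arrays, without overlap. The 5 other mu-class genes tested, chosen for mention after their values were seen, were all called lower, with *Gstm2* at -1.28, *Gstm4* at -1.96, *Gstm5* at -0.72 and *Gstm6* at -1.51 beside *Gstm3*. Whether their probes measure separate transcripts was not tested. The omega-class gene *Gsto1* was the higher call (1.31), and its second probe differed by 1.48.

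The other parts of the list were divided. Of 8 regulators, *Bach1* (1.03), a repressor at antioxidant response elements, and *Mafg* (0.76), a small MAF partner, were called higher with TGFß1 and *Keap1* (-0.63) lower. Of 9 thioredoxin genes, 2 were called higher (*Prdx5* 0.93 and *Prdx6* 1.26, both peroxiredoxins) and 1 lower (*Txnip* -1.29, an inhibitor of thioredoxin). Of 8 glutathione genes, *Slc7a11*, the cystine importer, was called higher (0.97) and *Glrx*, a glutaredoxin, lower (-0.70). Of 6 haem and iron genes none was called by limma, with 3 at an unadjusted p below 0.05, and of 6 genes of NADPH supply 1 was called lower (*Idh1* -1.47). Genes other than *Gstm3*, *Mgst1*, *Gstt1* and *Abcc3* were chosen here after their values were seen, as the called genes of small parts.

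With TNFα, 6 of the 66 genes were called higher and 10 lower, beside 4.09% and 5.96% of all probes. The 4 largest were all lower. *Mgst2*, a microsomal glutathione transferase, fell by 3.41 on the log2 scale, with control arrays from -0.77 to -0.34 and TNFα arrays from -4.36 to -3.56. *Abcc3* (-2.45 ± 0.41, SE), *Idh1* (-2.38 ± 0.32, SE), which makes NADPH, and *Aox1* (-2.17 ± 0.60, SE), an aldehyde oxidase, followed. *Aox1* was well above background on 2 of the 3 TNFα arrays, so the size of its fall is uncertain. None of the 5 other mu-class genes was called with TNFα in the fit without slide and run. Of these 5, 3 had an unadjusted limma p below 0.05. Of the 23 detoxification enzymes 5 were called lower and 1 higher, with 9 at an unadjusted p below 0.05. *Glrx* (1.69) and *Slc7a11* (1.73), chosen after their values were seen, were called higher with TNFα. Compared directly with TGFß1, TNFα was called higher for 9 of the 66 and lower for 4, beside 6.61% and 5.17% of all probes.

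**Figure D4:**
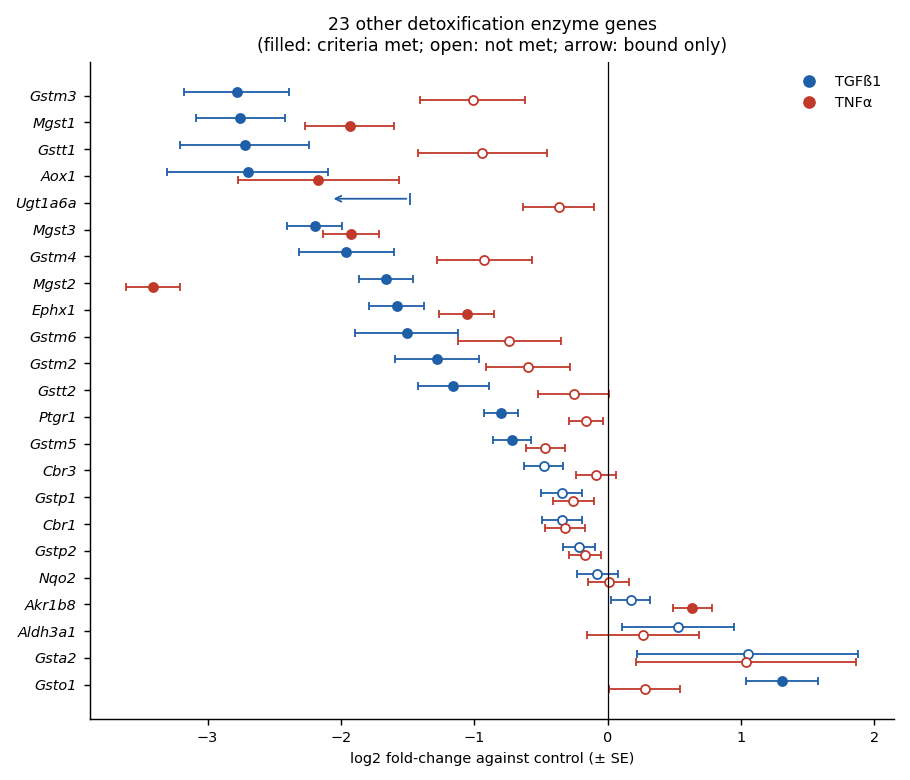
Log2 fold-change ± SE against control of the 23 other detoxification enzyme genes tested, with TGFß1 in blue and TNFα in red. Filled points met the criteria, open points did not, and the arrow marks *Ugt1a6a*, which was not well above background on TGFß1 arrays and was at least 2.79-fold lower. With TGFß1 14 genes were called lower, and with TNFα 5.

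With IL-1β, *Glrx* was the 1 gene of 66 that was called, higher by 0.81 ± 0.14 (SE, q = 0.0395), with control arrays from 3.29 to 3.44 and IL-1β arrays from 3.88 to 4.34. This call was lost without control 1, 6 or 11 or IL-1β 5 or 10. No gene of the list was called with IL-6 + sIL-6Rα by limma, and 2 had an unadjusted p below 0.05. With slide and run in the model 4 genes were called with IL-1β and 1 with IL-6 + sIL-6Rα, beside 1.1% and 0.787% of tested probes.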

How the data were processed

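RNA was measured on 15 one-colour Agilent arrays. The authors extracted spots with Agilent Feature Extraction (version 10.7.3.1 per the labels) and deposited spot intensity on a linear scale, already background-subtracted by that software. The whole-series table holds the same processed signal (largest difference 0). The files are annotated on an older mouse build, so that no probe position is given. From these values, flagged outlier spots were left out, log2 was taken, each array was set relative to its own 75th percentile, and spots of a probe were averaged. The 29334 probes well above background on all arrays of at least 1 group were fitted in 1 limma model (version 3.58.1, R 4.3.3) of the 5 groups, with 10 comparisons and no covariate. A gene is given by its brightest probe. P-values measure the spread between arrays of a group, and their number limits the precision. Where the labels do not say that arrays are separate cultures (IL-1β and IL-6 groups), this spread may be technical.

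Alternatives were other background and normalization settings, filters, slide and run as blocks, single slides, 9 arrays, and each array left out. For normexp the median spot signal was used in place of the planned mean signal, which was not used here. The runs were used as a block because, with the slide removed, deviations from group means correlated for all 30 pairs of arrays of the same run (r from 0.114 to 0.671), against 2 of 60 pairs of different runs above 0.1. The fit was tested on simulated data. Genes were named by rule: all 10 members, the 4 largest called genes of the further list per cytokine whose arrays did not overlap the controls, the 3 most alike genes of 3 members, and 3 known target genes, of which 1 is not reported here. The members and lists were chosen with earlier results of these data known.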

Additional observations from a re-analysis of the deposited data

How the results depend on the processing

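Every direction of the called members was kept under all alternatives run. With TGFß1 against control, 3 members were called, beside 17.9% of tested probes. There were 6 without the fold-change criterion (24.3% of probes) and 5 with slide and run in the model (22.7%). With 1 array left out there were 3 to 4 (13.5% to 18.3%). With TNFα against control, 0 (10% of probes) became 1 with the slide (12%), 2 with slide and run (15.4%), and 0 to 1 with an array left out (6.3% to 9.09%). IL-1β and IL-6 + sIL-6Rα against control stayed at 0 to 0 with an array left out. TNFα against TGFß1 went from 3 (11.8% of probes) to 1 within slide 2 (9.78%), and to 2 to 3 with an array left out (9.45% to 10.6%). IL-1β against TGFß1 gave 3 to 4 with an array left out (10.6% to 17.3% of probes). IL-6 + sIL-6Rα against TGFß1 gave 2 at a fold-change of 2 (8.72%) and 4 to 5 with an array left out (10.6% to 16.6%). IL-6 + sIL-6Rα against TNFα gave 0 with median normalization (6.72%) and at a fold-change of 2 (4.9%), and 1 to 1 with an array left out. With slide and run, IL-1β gave 1 against TNFα (10.5% of probes) and 1 against IL-6 + sIL-6Rα (1.77%). With an array left out these were 0 to 1 and 0 to 0. Fits within a slide hold fewer arrays. Counts within a slide are not given where a group had a single array there, and several calls were lost in those fits. For the other changes the cause was not tested.

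Values near 0 turned sign and were called nowhere. Within slide 1 these were *Gsta4* with TNFα (0.073), *Gclc* (-0.092) and *Txnrd1* (-0.12) with IL-1β, and *Txnrd1* with IL-6 + sIL-6Rα (-0.060). Within slide 2 they were *Gclm* (0.032), *Gsr* (0.30), *Srxn1* (0.069) and *Gstm1* (-0.22) with IL-1β, and *Nfe2l2* (-0.0056), *Hmox1* (-0.050), *Gclc* (0.31) and *Gsta4* (0.037) with IL-6 + sIL-6Rα. The slide 2 values set IL-1β 15 or IL-6 + sIL-6Rα 13 alone against control 6 alone. With IL-1β, median normalization gave *Gclc* -0.013 and *Txnrd1* -0.00373, and normexp gave *Srxn1* 0.00480. With 1 array left out, *Gsta4* with TNFα ranged from -0.43 to 0.011. With IL-1β *Gclc* then ranged from -0.097 to 0.21, *Gsr* from -0.22 to 0.078, *Txnrd1* from -0.16 to 0.23, *Srxn1* from -0.093 to 0.0055, and *Gstm1* from -0.060 to 0.72. With IL-6 + sIL-6Rα *Nfe2l2* ranged from -0.024 to 0.15, *Gclc* from -0.23 to 0.057, and *Txnrd1* from -0.086 to 0.30.

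Among the 66 further genes, 16 were called with TNFα (10% of tested probes) and 10 at a fold-change of 2 (5.41%), and 27 were called with TGFß1 (17.9%). With IL-1β 1 was called (0.232%), and 4 with slide and run (1.1%). With IL-6 + sIL-6Rα 0 were called (0.058%), and 1 with slide and run (0.787%). The 1 call with IL-1β was lost at a fold-change of 2, with median normalization, without the filter, within each slide, and without control 1, 6 or 11 or IL-1β 5 or 10.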
